A study of Mus musculus with 6 samples.

Results

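The RNA of genes that make cholesterol, and of genes that control this synthesis through the transcription factor SREBP2, was followed in the retina of 5XFAD mice. The genes were given as a list of names that numbered 27, of which 8 belong to the mevalonate step, 3 to the squalene step, 9 to the late sterol step and 7 to regulation. By symbol, 26 of them were found among the 19401 genes and regions listed in at least 1 library, of which 17705 have an Entrez identifier and 1696 are unannotated. The RNA of Tm7sf2, which encodes a sterol C14 reductase, was not analysed here.

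Retinal RNAseq compared control and efavirenz (EFV)-treated mice, with 3 libraries per group. All mice were hemizygous 5XFAD on the B6SJL background and 9 months old, and they carry transgenes for human amyloid precursor protein and presenilin with Alzheimer's disease mutations under the neuronal Thy1 promoter. EFV, an antiviral drug that at a small dose activates the cholesterol 24-hydroxylase CYP46A1, was given between the ages of 3 and 9 months in water containing Tween, at a labelled dose of 0.08 mg/kg, and control mice received the same water without the drug. Retinas with retinal pigment epithelium (RPE) from 5 to 6 mice were pooled for each library and the mice are described as male in the study's methods, so p-values measure the spread between pools and no value belongs to a single animal. Between 23455167 and 24590278 reads, as estimated per gene and then rounded, were counted in a library.

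Cholesterol is assembled from acetyl-CoA through mevalonate, farnesyl diphosphate, squalene and lanosterol, and the last enzymes turn lanosterol into cholesterol. When sterols in the endoplasmic reticulum are scarce, SCAP carries SREBP2 to the Golgi, where proteases encoded by Mbtps1 and Mbtps2 release its active part, and the INSIG proteins hold SCAP back when sterols are plentiful. The retina both makes cholesterol and takes it up from the blood through the RPE.

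The labelled tissue was first checked against markers of its cells, by summed FPKM (read fragments scaled to gene length and library total) over lists of genes. The 6 Müller cell markers, led by Glul, summed to between 1307 and 1368 FPKM, so this sum was close in all 6 libraries. Other sums set single libraries apart. The 7 RPE markers, led by Ttr, summed to 50.2, 25.8 and 48.9 FPKM in control replicates 1, 2 and 3 and to 45.6, 55.3 and 57.3 FPKM in EFV replicates 1, 2 and 3. Control replicate 2 was thus the lowest for RPE. None of these markers was listed at 0, but Mlana had only 2 to 13 counts per library and Best1 only 7 to 27. Beside 49.5% of all genes tested below 0, 7 of 7 RPE markers had a log2 fold change (EFV over control) above 0. Of these, Rpe65 (0.58) and Lrat (0.65) were higher past the looser limits defined below (1.47% of all genes tested), and without control replicate 2 the log2 fold changes were 0.29, still past them, and 0.42, no longer past them. Rpe65 was also not past them without control replicate 1 (0.65) or EFV replicate 1, 2 or 3 (0.62, 0.55 and 0.55), nor was Lrat without control replicate 1 (0.55) or EFV replicate 1 or 2 (0.60 and 0.61). Without control replicate 3 both were past them, with larger log2 fold changes of 0.83 for Rpe65 and 1.06 for Lrat. The 7 lens markers, led by Cryaa, summed to 1894 FPKM in control replicate 3 and to between 18.1 and 98.6 FPKM in the other 5 libraries, and none was listed at 0. All 6 tested lens markers were lower in EFV-treated mice past the looser limits (1.54% of all genes tested), and without control replicate 3 the log2 fold change of Cryaa went from -3.47 to 0.70, no longer past them. Nor was Cryaa past them without EFV replicate 1, 2 or 3 (-3.48, -3.01 and -4.12). The 4 Y-linked genes, led by Eif2s3y, summed to 55.4, 52.2 and 51.9 FPKM in control replicates 1, 2 and 3 and to 69.8, 55.7 and 25.2 FPKM in EFV replicates 1, 2 and 3. EFV replicate 3 was therefore the lowest for genes of the Y chromosome, although the mice are described as male. Without it the log2 fold change of Eif2s3y went from -0.12 to 0.20, the latter past the looser limits. Without EFV replicates 1 and 2 in turn the log2 fold change was -0.41 and -0.21, not past them. The part of RPE, lens or sex in the results below was not tested. In pooled tissue, fewer cells of a type and less RNA per cell cannot be told apart.

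**Figure D1:**
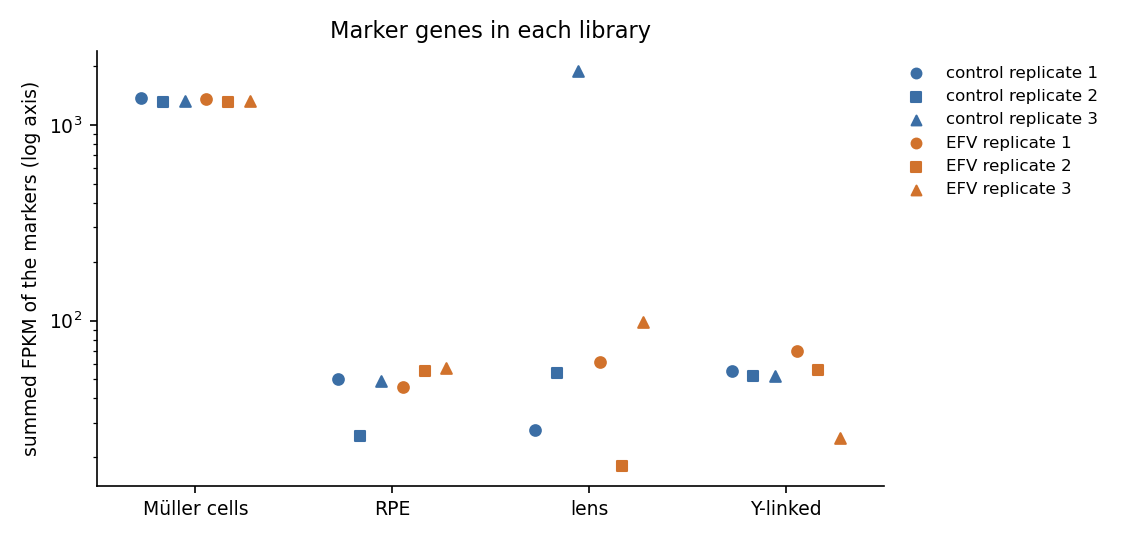
Summed FPKM (log axis) of marker genes of Müller cells, RPE and lens and of Y-linked genes in each of the 3 control and 3 EFV libraries, 1 point per library. Control replicate 3 stands apart for lens (1894 FPKM), control replicate 2 for RPE (25.8 FPKM) and EFV replicate 3 for Y-linked genes (25.2 FPKM).

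The question for the pathway was whether its RNA differed between EFV-treated and control mice. No gene of the pathway passed the adjusted test, and the fold changes were small. All 26 listed genes had enough counts to be tested, with 225 to 4036 counts per gene and library. At an adjusted p of 0.05 (edgeR with Benjamini-Hochberg adjustment over all genes), 0 of the 26 were called, as were 0 of all 15537 genes tested (0%), a number that includes 1160 of the unannotated regions. Without adjustment, p was at or under 0.05 for 472 of the 15537 genes and for 1 of the 26. DESeq2 called 11 genes, limma 0 and a Poisson model, which has no term for differences between pools, 2043, with 0, 0 and 3 of the 26 among them. A looser pair of limits, an unadjusted p of 0.05 or less by edgeR together with a log2 fold change of at least 0.10 in either direction, was passed by 1 of the 26, Insig1, which was lower in EFV-treated mice. These limits were passed in that direction by 1.54% of all genes tested and in the other direction, in which 0 of the 26 passed, by 1.47%, so 1 gene is not a result about the pathway. In none of the 26 were the 3 EFV libraries separated from the 3 control libraries by scaled counts. The groups did not overlap for 8.14% of all genes tested, and among only 26 genes a count of 0 is not a result about the pathway either.

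The log2 fold change lay close around 0. It was below 0 for 13 genes and above 0 for 13, with a median of 0.0003 beside 0.0012 for all genes tested, and ranged from -0.15 (Insig1) to 0.08 (Mbtps2). With each library left out in turn, 13 of the 26 genes kept the sign of their log2 fold change and 13 did not. The median absolute value was 0.04 for the pathway and 0.06 for all genes tested. The median spread of a gene between libraries of 1 group, as the SD of scaled log2 counts, was 0.07 for the 26 genes and 0.10 for all 15451 tested genes with counts in every library. The 95% intervals of the log2 fold changes show how large a difference these libraries leave possible. For 25 of the 26 genes the interval lay inside a 1.25-fold difference in either direction, which held for 63.0% of all genes tested, and for the remaining gene, Hsd17b7, it lay inside 1.5-fold. These comparisons with all genes tested were not matched for counts. The 26 genes had at least 225 counts in every library, whereas 10 counts in 3 libraries sufficed for a gene to be tested. They therefore do not show that the pathway was steadier than other genes of its level.

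**Figure D2:**
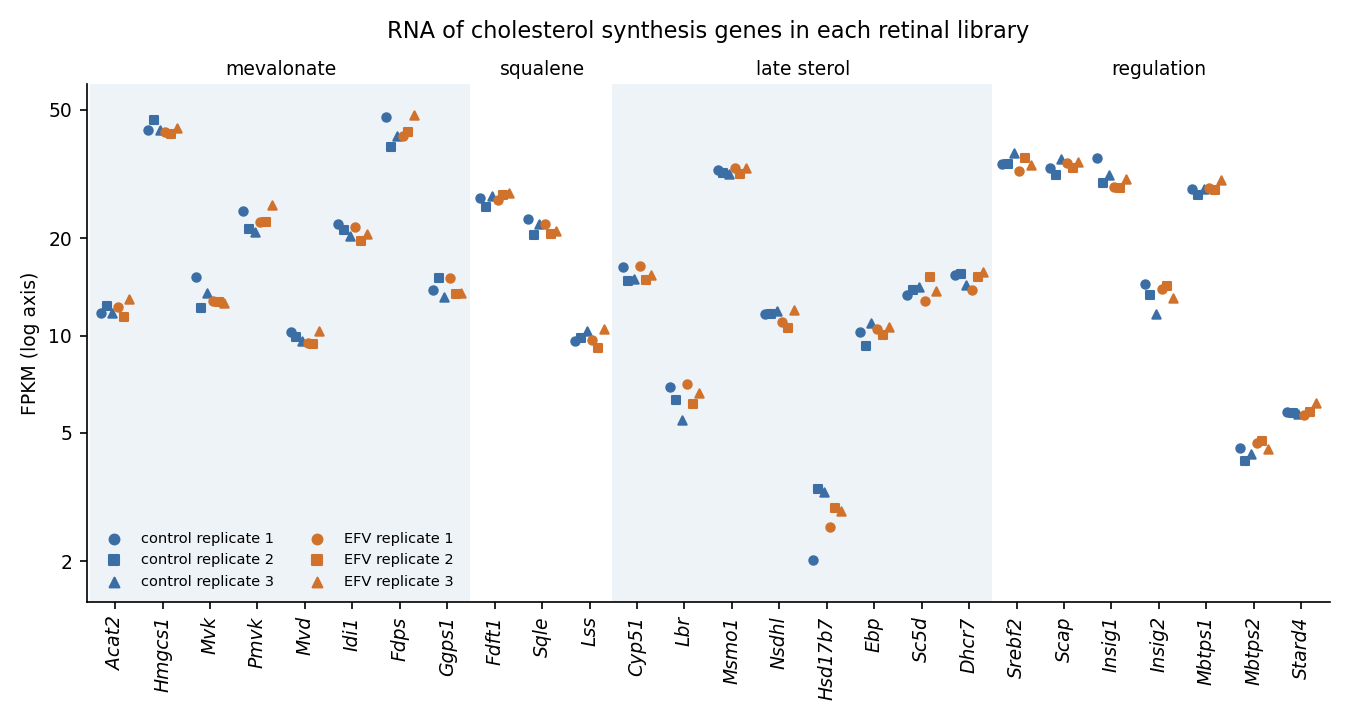
FPKM (log axis) of 26 genes of cholesterol synthesis and its regulation in each of 6 retinal libraries, 1 point per library, with the genes grouped by pathway step. Within a gene the control and EFV points are intermixed, and single values run from 2.02 FPKM for Hsd17b7 to 48.2 FPKM for Fdps.

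**Figure D3:**
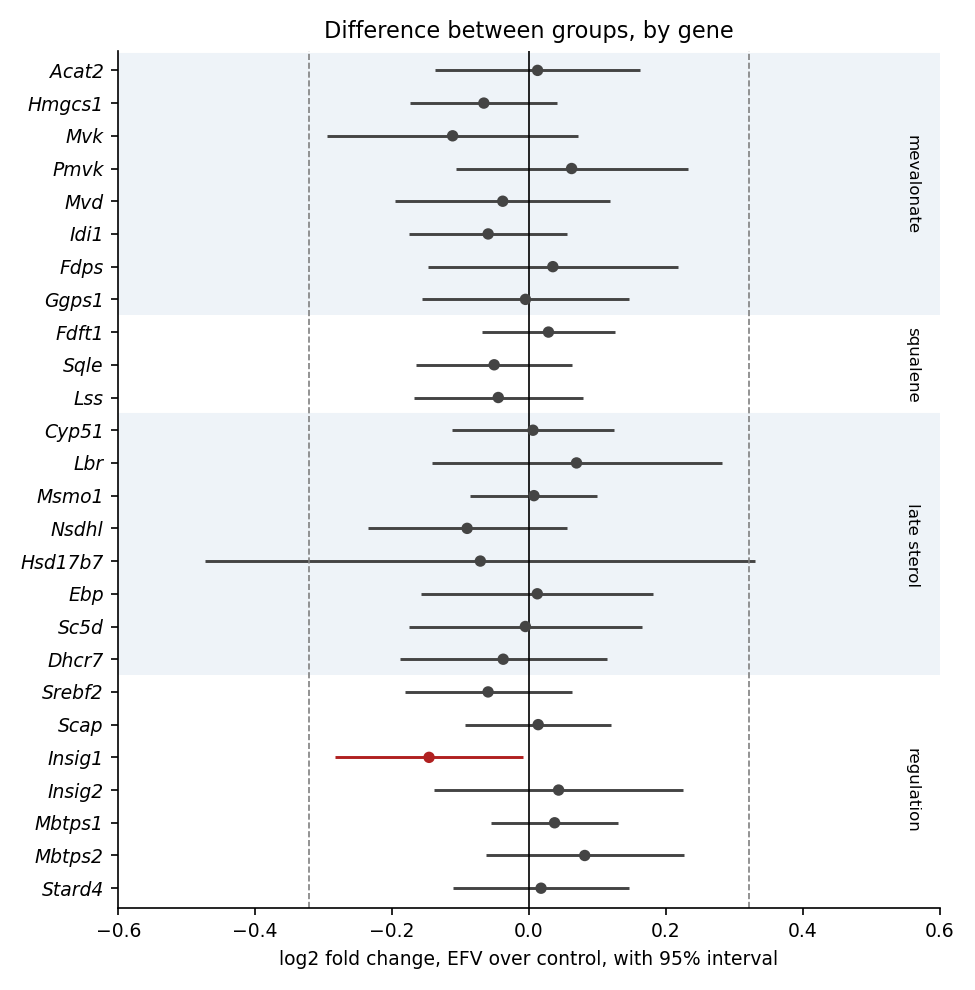
Log2 fold change (EFV over control, points) of each of 26 genes with its 95% interval from edgeR (lines), with dashed lines at a 1.25-fold difference. The interval of Insig1 (red), from -0.28 to -0.01, is the one that does not include 0, and the interval of Hsd17b7 is the one that crosses the dashed lines.

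The pathway was well expressed in this tissue. The median over the 26 genes of the mean FPKM was 14.5, against 7.66 for all genes tested, and 22 of the 26 were above the median of the genes tested by mean FPKM. The summed FPKM of the 8 mevalonate genes was 180 ± 7.61 in control and 180 ± 7.26 in EFV-treated mice (SD, n = 3). For the 3 squalene genes the sums were 57.9 ± 2.29 and 58.1 ± 1.08, for the 8 late sterol genes 107 ± 1.03 and 108 ± 1.81, and for the 7 regulators 151 ± 5.26 and 150 ± 2.45. With all libraries, the difference between the group means of each step was smaller than either SD. No difference beyond the spread between pools was thus seen there in FPKM. FPKM is scaled by library total, whereas the fold changes used TMM scaling. The TMM factors ran from 0.984 to 1.003 in control and from 0.994 to 1.014 in EFV libraries. The sums were not repeated with TMM scaling, so the small differences between group means, and their directions, hold for FPKM alone. Leaving out single libraries turned the sign of the log2 ratio of the sums (EFV over control) in each step. It ran from -0.03 to 0.03 for mevalonate and from -0.03 to 0.02 for squalene. For late sterol it ran from -0.0061 to 0.02 and for regulation from -0.04 to 0.01. The squalene and regulation ratios were lowest without control replicate 2, where the comparison with the SD was not repeated.

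**Figure D4:**
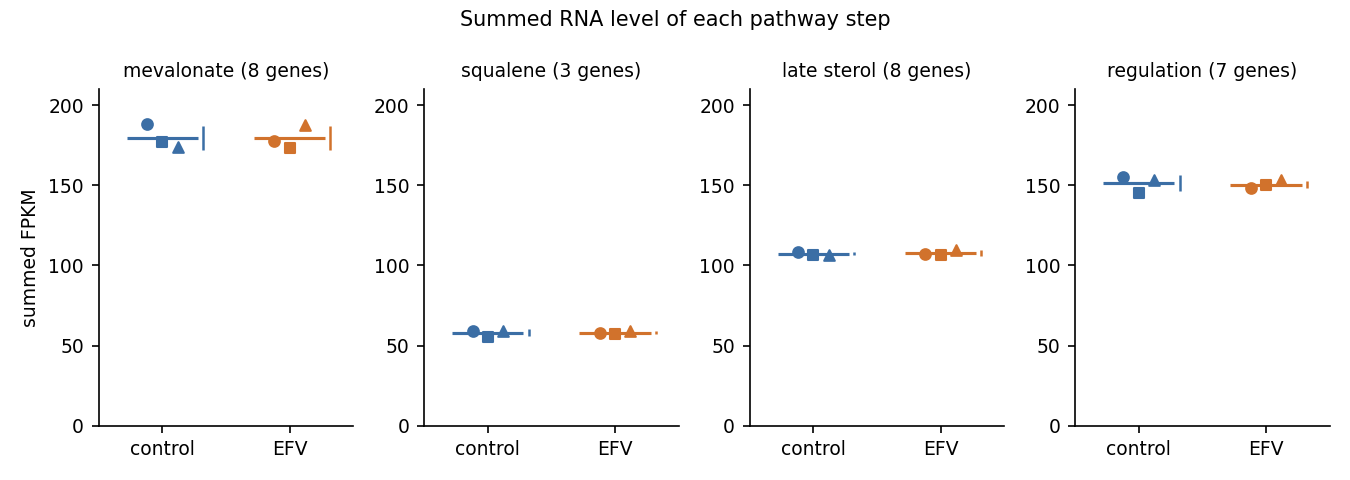
Summed FPKM of the genes of each pathway step in 3 control and 3 EFV libraries (points), with the mean of each group (horizontal line) and its SD (vertical line to the right). The group means are 180 and 180 FPKM for mevalonate, 57.9 and 58.1 for squalene, 107 and 108 for late sterol and 151 and 150 for regulation.

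In the mevalonate step, Hmgcs1, which encodes the cytosolic synthase that makes HMG-CoA, had the highest mean level, 43.6 FPKM (chr13:119690379-119708260 in GRCm38, plus strand). Its level was 43.4, 46.4 and 43.2 FPKM in control replicates 1, 2 and 3 and 42.7, 41.9 and 44.0 FPKM in EFV replicates 1, 2 and 3. The groups overlapped, with the highest value in control replicate 2 and the lowest in EFV replicate 2. Hmgcs1 had a log2 fold change of -0.07 (95% interval -0.17 to 0.04, adjusted p = 0.999 by edgeR), and of -0.03 without control replicate 2. Antisense Gm48342 shares 12.1% of the exonic bases of Hmgcs1, and strandedness is not given in the sources used here.

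Hmgcs1 is a known target of SREBP2, and its promoter is shown because it was the only one among the genes studied with a match to the sterol regulatory element TCACNCCAC. RefSeq promoter windows (GRCm38.p6, 250 bases before to 50 bases after the start of a transcript) were found for 23 of the 27 genes, Tm7sf2 included. The stretch below lies at chr13:119690151-119690240 on the plus strand, from 200 to 111 bases before the start, and capitals mark a CCAAT box (CCAAT, here on the opposite strand) that begins 176 bases and a sterol regulatory element that begins 137 bases before the start.
Hmgcs1: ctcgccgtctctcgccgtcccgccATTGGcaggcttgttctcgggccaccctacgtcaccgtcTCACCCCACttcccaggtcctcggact
On either strand, this sterol element was present in 1 of the 23 genes and in 1.44% of the 27025 genes with a window (1.24% of windows). At least 1 CCAAT box was found for 19 of the 23, namely 16 of 17 enzymes and 3 of 6 regulators, beside 41.1% of all genes. A GC box (GGGCGG) was found for 20 of the 23 beside 38.2%, and an E-box (CACGTG) for 5 of the 23 beside 8.09%. A match describes letters and is neither a site nor a cause, and where there is no match these letters are merely not in this window.

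Fdps, which encodes farnesyl diphosphate synthase and was named after its values were seen, had a mean level of 43.2 FPKM, near that of Hmgcs1. It was at 47.5, 38.4 and 41.3 FPKM in control replicates 1, 2 and 3 and at 41.3, 42.5 and 48.2 FPKM in EFV replicates 1, 2 and 3. Its range enclosed that of Hmgcs1, so the order of the 2 genes was not resolved. Its log2 fold change was 0.03 (95% interval -0.15 to 0.22), and -0.03 without control replicate 2 or without EFV replicate 3, and 0.12 without control replicate 1. Gm43738, on the same strand, shares 26.7% of the exonic bases of Fdps, which leaves its counts uncertain. Mvk, the mevalonate kinase, had the largest absolute fold change of the step. It was at 15.2, 12.1 and 13.5 FPKM in control replicates 1, 2 and 3 and at 12.8, 12.7 and 12.6 FPKM in EFV replicates 1, 2 and 3. The EFV values were close together and lay inside the range of the control values, which was set by control replicates 1 and 2. Mvk had a log2 fold change of -0.11 (95% interval -0.29 to 0.07). Without control replicate 2 it was -0.18 (-0.36 to -0.01) and past the looser limits, and without control replicate 1 it was -0.03 (-0.21 to 0.14).

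Of the other mevalonate genes, Pmvk and Idi1 had mean levels of 22.8 and 20.9 FPKM, Ggps1, which makes geranylgeranyl diphosphate, 14.02 FPKM, Acat2, the cytosolic thiolase that opens the pathway, 12.1 FPKM, and the decarboxylase gene Mvd 9.83 FPKM. Their log2 fold changes lay between -0.06 (Idi1) and 0.06 (Pmvk), and their intervals lay between -0.20 and 0.23. With each library left out, Pmvk ran from 0.01 without EFV replicate 3 to 0.12 without control replicate 1, Idi1 from -0.09 without EFV replicate 1 to -0.03 without EFV replicate 2, and Mvd from -0.08 without EFV replicate 3 to -0.02 without EFV replicate 1. Ggps1 changed sign without control replicate 2 (0.06), EFV replicate 2 (0.02) or EFV replicate 3 (0.03), and with scaling by total counts (0.01) or limma (at most 0.0001). Acat2 lies beside a closely similar gene, Acat3, so its counts are uncertain. With the counts of both genes summed the log2 fold change was -0.0027, against 0.01 for Acat2 alone, and Acat2 alone was at -0.03 without EFV replicate 3, at -0.0064 without control replicate 1, at 0 without control replicate 3 and at 0.05 without EFV replicate 2.

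In the squalene step, Fdft1 (squalene synthase) was the most abundant gene. Its level was 26.6, 24.9 and 26.9 FPKM in control replicates 1, 2 and 3 and 26.2, 27.2 and 27.5 FPKM in EFV replicates 1, 2 and 3. Control replicate 2 was the lowest and EFV replicate 3 the highest, and the groups overlapped. For Fdft1 the log2 fold change was 0.03 (95% interval -0.07 to 0.13), and it ran from 0.0002 without control replicate 2 to 0.05 without EFV replicate 1. Exons of Ctsb, on the opposite strand, share 18.3% of the exonic bases of Fdft1, which leaves its counts uncertain. Sqle (squalene monooxygenase), which introduces oxygen into squalene, was at 22.9, 20.5 and 22.1 FPKM in control replicates 1, 2 and 3 and at 22.2, 20.6 and 21.1 FPKM in EFV replicates 1, 2 and 3. All EFV values of Sqle fell within the range of the control values. Its log2 fold change was -0.05 (95% interval -0.16 to 0.06) and ran from -0.09 without control replicate 2 to -0.02 without control replicate 1. That of Lss, which closes the sterol rings and had a mean of 9.85 FPKM, was -0.04 (-0.17 to 0.08) and ran from -0.09 without EFV replicate 3 to -0.0086 without EFV replicate 2.

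In the late sterol step, Msmo1, which encodes the C4 methylsterol oxidase, was both the most abundant gene and the steadiest of the 26. It was at 32.5, 31.8 and 31.6 FPKM in control replicates 1, 2 and 3 and at 33.0, 31.6 and 33.0 FPKM in EFV replicates 1, 2 and 3. The coefficient of variation over the 6 libraries was 1.97%, the lowest of the pathway, whose median was 4.92%. Its log2 fold change was 0.0072 (95% interval -0.09 to 0.10), and -0.0021 and -0.0008 without control replicate 3 and EFV replicate 1. Nsdhl, an X-linked dehydrogenase that acts after Msmo1, had the largest absolute fold change of the step. It was at 11.68, 11.67 and 11.95 FPKM in control replicates 1, 2 and 3 and at 10.99, 10.54 and 12.02 FPKM in EFV replicates 1, 2 and 3. EFV replicates 1 and 2 were below all controls and EFV replicate 3, the library with low Y-linked genes, was above them. Nsdhl had a log2 fold change of -0.09 (95% interval -0.24 to 0.06) with this library and -0.14 (-0.29 to 0.0074) without it, and of -0.06 without EFV replicate 2.

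Ebp, the sterol isomerase gene and also X-linked, had a log2 fold change of 0.01 with all libraries, of 0.0038 without EFV replicate 3, of -0.04 without control replicate 2 and of 0.07 without control replicate 3. Hsd17b7, named after its values were seen, was the least abundant and most variable gene. Its level was 2.02, 3.36 and 3.29 FPKM in control replicates 1, 2 and 3 and 2.55, 2.93 and 2.86 FPKM in EFV replicates 1, 2 and 3. Control replicate 1 was below all other libraries and the other controls were above all EFV libraries, so the control values enclosed the EFV values. The coefficient of variation was 17.6% and the log2 fold change -0.07 (95% interval -0.47 to 0.33). With the replicate number as a block the log2 fold change was -0.05, and with limma -0.02. Without control replicate 1 the log2 fold change was -0.28 (-0.50 to -0.05), past the looser limits, and without control replicates 2 and 3 it was above 0 (0.06 and 0.03). Among the other late genes, Cyp51, Dhcr7 and Sc5d had mean levels of 15.4, 15.0 and 13.8 FPKM and Lbr, a lamin receptor that is also a sterol C14 reductase, 6.43 FPKM. Their log2 fold changes lay between -0.04 (Dhcr7) and 0.07 (Lbr), and each of the 4 changed sign when a single library was left out. Lbr was at -0.02 without control replicate 3 and Dhcr7 at 0.02 without EFV replicate 1. Cyp51 was at -0.02, -0.01 and -0.03 without control replicate 2, control replicate 3 and EFV replicate 1. Sc5d was at 0.0054, 0.01, 0.05 and 0.0074 without control replicates 2 and 3 and EFV replicates 1 and 3, and at 0.0097 with scaling by total counts and 0.0077 to 0.0081 with limma.

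Among the regulators, Srebf2, the gene of SREBP2 itself, was the most abundant. It was at 34.0, 33.9 and 36.7 FPKM in control replicates 1, 2 and 3 and at 32.3, 35.4 and 33.8 FPKM in EFV replicates 1, 2 and 3. The highest value was in control replicate 3 and the lowest in EFV replicate 1, and the other 4 libraries were intermixed. For Srebf2 the log2 fold change was -0.06 (95% interval -0.18 to 0.06), and it ran from -0.10 without EFV replicate 2 to -0.02 without control replicate 3. Scap was close behind, at 32.9, 31.5 and 35.2 FPKM in control replicates 1, 2 and 3 and at 34.2, 33.0 and 34.6 FPKM in EFV replicates 1, 2 and 3. Here the EFV values lay inside the control range, and the log2 fold change was 0.01 (95% interval -0.09 to 0.12), and -0.0012 and -0.01 without control replicates 1 and 2. The levels of Srebf2 and Scap overlapped across libraries.

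Insig1 (chr5:28071363-28078662 in GRCm38, plus strand) encodes the INSIG protein whose own gene SREBP2 activates, and it was the pathway gene past the looser limits. Its level was 35.4, 29.6 and 31.3 FPKM in control replicates 1, 2 and 3 and 28.9, 28.7 and 30.6 FPKM in EFV replicates 1, 2 and 3. Control replicate 1 was the highest, the 2 lowest values were in EFV replicates 1 and 2, and the groups overlapped because EFV replicate 3 was above control replicate 2. For Insig1 the log2 fold change was -0.15 (SE 0.06, 95% interval -0.28 to -0.01, adjusted p = 0.999 by edgeR). The call rested on single libraries. Without control replicate 1 the log2 fold change was -0.08 (95% interval -0.19 to 0.04) and the looser limits were no longer passed, nor were they without EFV replicate 1 (-0.13) or EFV replicate 2 (-0.14). They were still passed without control replicate 2 (-0.20), which had low RPE markers, without control replicate 3 (-0.17), which had high lens markers, and without EFV replicate 3 (-0.17), which had low Y-linked genes. With scaling by total counts in place of TMM (-0.13), and with limma on log2 FPKM (-0.12 to -0.13), Insig1 did not pass them either, with a log2 fold change about as large. The expected counts of Insig1 were not whole numbers, so some of its reads were shared with another gene or region.

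The promoter of Insig1 is shown because Insig1 was the gene past the looser limits. The stretch lies at chr5:28071172-28071321 (GRCm38.p6, RefSeq) on the plus strand, from 240 to 91 bases before the start, and capitals mark, in order, a GC box, a CCAAT box, another pair of GC boxes and an E-box that begin 229, 216, 167, 126 and 101 bases before the start.
Insig1: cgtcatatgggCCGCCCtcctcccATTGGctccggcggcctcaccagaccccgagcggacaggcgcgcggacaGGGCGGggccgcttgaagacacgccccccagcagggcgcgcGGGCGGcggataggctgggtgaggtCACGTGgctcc
No match to TCACNCCAC was found in the window of Insig1, in contrast to Hmgcs1, which says only that these letters are not within these 300 bases.

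Insig2 encodes the related INSIG protein. It was at 14.4, 13.4 and 11.7 FPKM in control replicates 1, 2 and 3 and at 13.9, 14.2 and 13.1 FPKM in EFV replicates 1, 2 and 3. In every library Insig2 was below Insig1, and its groups overlapped, with control replicate 1 the highest and control replicate 3 the lowest. Insig2 had a log2 fold change of 0.04 (95% interval -0.14 to 0.22), and of -0.03 without control replicate 3. Of the protease genes, Mbtps1 had a mean level of 28.6 FPKM and a log2 fold change of 0.04 (95% interval -0.06 to 0.13), and of 0.01 without EFV replicate 3. The X-linked Mbtps2 had a mean of 4.45 FPKM and a log2 fold change of 0.08 (-0.06 to 0.23), and of 0.11 (-0.05 to 0.27) without EFV replicate 3, and Yy2 shares 28.4% of its exonic bases. Stard4, which encodes a cytosolic carrier of sterols, had a mean of 5.82 FPKM and a log2 fold change of 0.02 (-0.11 to 0.15), and of -0.01 without EFV replicate 3 and 0.05 without EFV replicate 1.

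**Figure D5:**
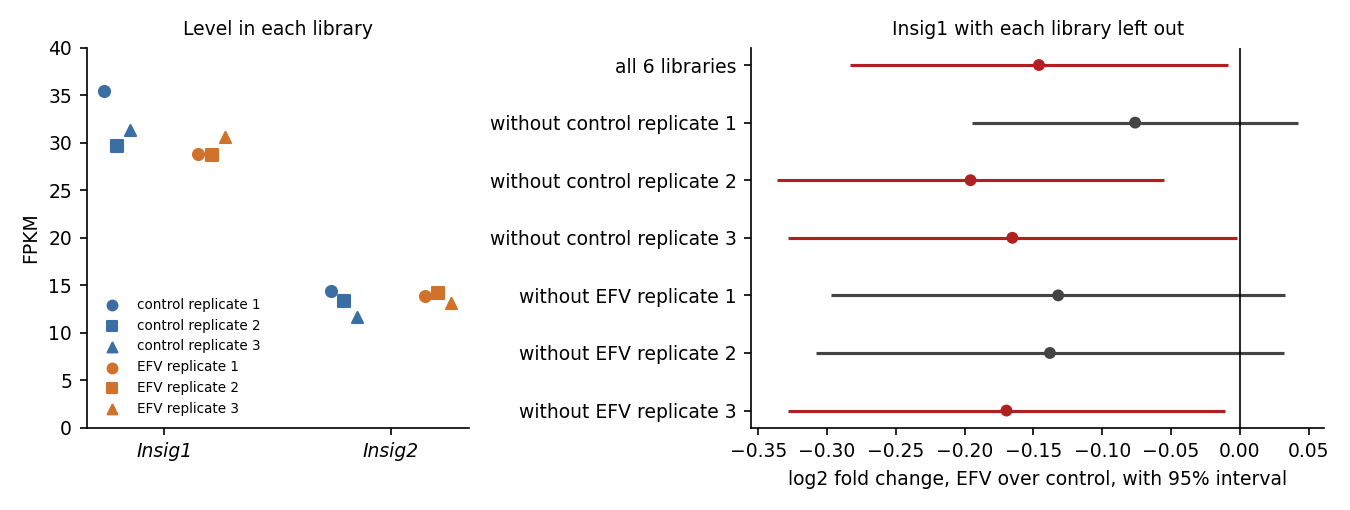
FPKM of Insig1 and Insig2 in each library (left, 1 point per library) and the log2 fold change of Insig1 with its 95% interval from edgeR with all 6 libraries and with each left out (right), in red where the looser limits were passed. The fold change stays below 0 in each case and runs from -0.20 without control replicate 2 to -0.08 without control replicate 1.

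Single libraries stood at the ends of the range for many of the genes. EFV replicate 3 held the highest FPKM of the 6 libraries for 11 of the 26 genes, where it was highest for 23.6% of all genes tested, and the lowest for 0 of them (13.5% of all genes). Control replicate 2 was the lowest for 9 of the 26 (24.7% of all genes), and EFV replicate 2 for 7 (16.7% of all genes). In log2 terms the median deviation of the 26 genes from their own mean over the libraries was 0.04 in EFV replicate 3 and -0.03 in EFV replicate 2, so treated libraries lay at both ends. These rankings and deviations used FPKM without TMM scaling. The TMM factor was largest in EFV replicate 3 (1.014) and smallest in control replicate 2 (0.984), so part of the order reflects the scaling.

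Genes beside the pathway were described from 4 further lists. In the fatty acid arm of SREBP, 9 of 12 genes had a log2 fold change below 0, as had 49.5% of all genes tested, with a median of -0.03, and 1, Fads2, was lower past the looser limits (1.54% of all genes tested). Fads2 encodes the delta-6 fatty acid desaturase and was at 32.4, 34.2 and 38.1 FPKM in control replicates 1, 2 and 3 and at 30.7, 33.1 and 30.6 FPKM in EFV replicates 1, 2 and 3. The groups overlapped, since EFV replicate 2 was above control replicate 1. Fads2 had a log2 fold change of -0.17 (95% interval -0.33 to -0.01, adjusted p = 0.999 by edgeR). Without control replicate 3, the highest, it was -0.10 and not past the looser limits, nor were they passed without control replicate 2 (-0.18), EFV replicate 1 (-0.15) or EFV replicate 3 (-0.14). Next by p were the acyltransferase Gpam (log2 fold change 0.05, and 0.03 without control replicate 2) and the desaturase Scd1 (-0.12, from -0.23 without EFV replicate 1 to -0.03 without control replicate 3). The most abundant gene was the desaturase Scd2, with a mean of 90.9 FPKM and a log2 fold change of -0.04 that was above 0 without control replicate 3 (0.02) or EFV replicate 3 (0.03).

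Of 12 genes of sterol-regulated degradation at the endoplasmic reticulum, 4 had a log2 fold change below 0 (49.5% of all genes tested) and 8 above, and 0 passed the looser limits. The lowest p belonged to Erlin1 (log2 fold change 0.20, 95% interval -0.01 to 0.41), the ubiquitin-conjugating enzyme Ube2g2 (-0.10, and -0.05 without control replicate 3) and the ubiquitin ligase Rnf139 (0.07, and 0.05 without control replicate 2). In Rnf139, 1 of the 12, the groups did not overlap (8.14% of all genes tested), with 9.98, 9.20 and 9.72 FPKM in control replicates 1, 2 and 3 and 10.43, 10.02 and 10.32 FPKM in EFV replicates 1, 2 and 3. Vcp, the segregase that draws proteins out of the membrane, was the most abundant, with a mean of 93.5 FPKM and a log2 fold change of -0.01, which was above 0 with total count scaling (0.0038), with limma (0.0046 to 0.0047) and without EFV replicate 3 (0.01).

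Of 12 genes of the isoprenoid branches after farnesyl diphosphate, 10 had a log2 fold change above 0 and 2 below, beside 49.5% of all genes tested below 0. The median was 0.02, and 0 passed the looser limits. Pggt1b, a subunit of an enzyme that attaches geranylgeranyl groups to proteins, was at 5.89, 5.70 and 5.96 FPKM in control replicates 1, 2 and 3 and at 6.80, 6.16 and 6.33 FPKM in EFV replicates 1, 2 and 3. Pggt1b was the 1 gene of the 12 whose groups did not overlap (8.14% of all genes tested), and the 95% interval of the log2 fold change of 0.12 ran from -0.01 to 0.26, and without EFV replicate 1 the log2 fold change was 0.06. Next by p were Fnta (log2 fold change 0.05, and -0.0004 without control replicate 2) and Pdss2 (0.07, and -0.0072 without EFV replicate 3). Icmt was the most abundant, with a mean of 125 FPKM and a log2 fold change of 0.03, and of -0.0070 without EFV replicate 2. Among 10 electron donors, cofactors and partner factors, 5 had a log2 fold change below 0 and 5 above, and 0 passed the looser limits. The lowest p belonged to the cytochrome b5 reductase gene Cyb5r3 (log2 fold change -0.12, 95% interval -0.25 to 0.02), followed by Cyb5b (-0.07, and -0.01 without control replicate 2) and Por (-0.04, and -0.0066 without control replicate 3). Pgrmc1 was the most abundant, with a mean of 97.5 FPKM and a log2 fold change of 0.02, and of -0.0054 without control replicate 2. In each of the 4 lists, 0 genes were called at an adjusted p of 0.05.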

How the data were processed

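The mouse build was mm10, to which the authors aligned their reads using Bowtie2 2.2.5, and HISAT2 2.0.4 is also named in the submitters' processing notes. From RSEM 1.2.12 the authors took an expected count per gene, in which a read that fits several genes is divided among them, and the deposited expected counts are not normalized. The deposited FPKM values are these counts scaled by gene length and by library total, and a gene not listed in a library was taken as 0 there. Strandedness and annotation release are not given in the sources used here. The labels describe selection of polyadenylated RNA and a dose of 0.08 mg/kg, and the methods of the study state a slightly higher dose.

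Rounded expected counts went into edgeR 4.0.16 under R 4.3.3 (quasi-likelihood, TMM scaling, group as the only term, both directions), which tested genes with 10 counts or more in 3 or more libraries, with Benjamini-Hochberg adjustment over all 15537 genes tested. Intervals (95%) used the standard error and degrees of freedom of that fit. The looser limits are those of the study, which applied them to a Poisson-based p, whereas here they were applied to the p of edgeR. All p-values rest on this model. The methods were also run on simulated data, and no result of those runs is reported here.

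The genes and lists were chosen with earlier results of these data known. Values in every library were given for genes of the pathway and of the further pathway lists past the looser limits or with non-overlapping groups, the most abundant gene and the gene with the largest absolute fold change of each step, and Srebf2, Scap, Insig1 and Insig2. From each further pathway list, the 3 genes with the lowest p and the most abundant gene were named. Lists of cell markers covered cones, amacrine, ganglion, Müller, RPE, lens, oligodendrocyte, endothelial, microglial and fibroblast genes and Y-linked genes, and some further lists are not reported here. Alternatives were RLE, upper quartile and total count scaling, no filter, a mean of at least 50 counts, counts not rounded, DESeq2 1.42.0, limma 3.58.1 on log2 FPKM with pseudocounts of 0.1, 1 and 0.01, the replicate number as a block, a Poisson model, each library left out, and summed counts of Acat2 and Acat3. Positions are from GENCODE vM21 (GRCm38, the build of mm10), promoters from RefSeq (GRCm38.p6). Tables and figures used Python 3.11.15, pandas 2.3.3 and matplotlib 3.10.9. Xist and protein sequences were not used here.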

Additional observations from a re-analysis of the deposited data

How the results depend on the processing

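At an adjusted p of 0.05, 0 genes were called by edgeR under each other scaling, filter and rounding, with limma and with the replicate block, whereas DESeq2 called 11 and the Poisson model 2043 genes. With each library left out, 0 to 1 genes were called. Past the looser limits, 239 genes were lower and 228 higher. These counts became 145 and 124 with DESeq2 and 1172 and 1133 with the Poisson model, and scaling by total counts gave 159 lower and 288 higher genes (64.4% higher, against 48.8%). With limma the share of higher genes was 60.1% to 60.7%. With each library left out, 207 to 310 genes were lower and 182 to 266 higher.

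Of the pathway, 0 genes were called at an adjusted p of 0.05 except with the Poisson model, which called 3. The number lower past the looser limits, 1, was 0 with scaling by total counts and with limma at each of 3 pseudocounts, 2 with the Poisson model and 0 to 2 with each library left out. Insig1 passed them in 11 of 18 alternatives and in 3 of the 6 that left out a library. The number of pathway genes with non-overlapping groups was 0 in the other 8 alternatives that gave it and 2 to 6 (7.69% to 23.1%) with a library left out, beside 16% to 19% of all genes tested, as fewer libraries overlap less often. The median log2 fold change of the pathway lay between -0.02 and 0.02 in 18 alternatives.

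Log2 fold changes near 0 changed sign. With each library left out, Msmo1 ran from -0.0021 without control replicate 3 to 0.0181 and was at -0.0008 without EFV replicate 1. Scap ran from -0.0143 without control replicate 2 to 0.0545 and was at -0.0012 without control replicate 1, and Insig2 ran from -0.0323 without control replicate 3 to 0.1102. Acat2 was at -0.0027 summed with Acat3. The other pathway genes and the further lists were added to the alternatives after seeing the data. With a library left out, Acat2 ran from -0.0267 to 0.0503, Fdps from -0.0284 to 0.1171, Ggps1 from -0.0606 to 0.0554, Cyp51 from -0.0323 to 0.0449, Lbr from -0.0206 to 0.1475, Hsd17b7 from -0.2779 to 0.0566, Ebp from -0.0433 to 0.0668, Sc5d from -0.0808 to 0.0530, Dhcr7 from -0.0742 to 0.0157 and Stard4 from -0.0142 to 0.0455. With scaling by total counts Ggps1 was at 0.0109 and Sc5d at 0.0097, and with limma at pseudocounts of 0.1, 1 and 0.01 Ggps1 was at 0.0001, 0 and 0.0001 and Sc5d at 0.0080, 0.0077 and 0.0081. In the further lists, Fnta ran from -0.0004 to 0.0862 and Pgrmc1 from -0.0054 to 0.0519, both lowest without control replicate 2, Pdss2 from -0.0072 without EFV replicate 3 to 0.1325 and Icmt from -0.0070 without EFV replicate 2 to 0.0452. Scd2 ran from -0.1061 to 0.0347 without EFV replicate 3 and was at 0.0156 without control replicate 3. Vcp ran from -0.0323 to 0.0127 without EFV replicate 3 and was at 0.0038 with total counts and 0.0046 to 0.0047 with limma. The cause was not tested. Of all values of the 26 pathway genes under the alternatives, 35 changed sign, 431 kept their direction and stayed above an adjusted p of 0.05, and 3 (Insig1, Hmgcs1 and Srebf2) kept their direction and were called by the Poisson model.

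The replicate numbers are only part of the titles. For that reason the libraries were not treated as pairs in the main test, and the replicate number was a block in an alternative. Deviations of same-numbered libraries correlated by 0.125, 0.0832 and 0.0992, each the highest for its number as a hint from the data. Those of differently numbered control and EFV libraries correlated by -0.101 to -0.00629. Whether same-numbered libraries belong together was not tested. With the replicate block 270 genes were lower and 244 higher past the looser limits, 0 were called at an adjusted p of 0.05, and Insig1 remained past the limits with a log2 fold change of -0.14.

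With 3 pools per group, differences smaller than the intervals given cannot be resolved. Counts of Acat2, Fdps, Fdft1 and Insig1 hold reads shared with other genes or regions, and 10 of the 26 genes share exonic bases with another annotated gene.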

Other observations

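Markers of other cells of the retina were read in the same way. The 6 cone markers, led by Pde6h, summed to between 610.8 and 716.4 FPKM, and the 4 amacrine markers, led by Gad1, to between 230.6 and 247.7 FPKM, and 0 genes of these lists passed the looser limits. By scaled counts, the groups did not overlap for 5 markers of the lists reported, named after their values were seen, beside 8.14% of all genes tested. They were 1 of 6 cone, 1 of 4 amacrine, 1 of 7 RPE, 1 of 5 tested microglial and 1 of 4 tested fibroblast markers. The other lists reported held none. In EFV-treated mice the cone marker Gngt2 and the amacrine marker Tfap2b were below all control libraries, and the RPE marker Rpe65, the microglial marker Cx3cr1 and the fibroblast marker Col1a2 were above them. Of the cone markers, 4 had a log2 fold change below 0 and 2 above, and of the amacrine markers 3 and 1. All 4 fibroblast markers tested were above 0, beside 49.5% of all genes tested below 0. By FPKM the groups overlapped for Tfap2b, with 31.5 in EFV replicate 3 and 30.8 in control replicate 2. All 5 ganglion cell markers, led by Nefl, and all 5 endothelial markers, led by Flt1, had a log2 fold change below 0. This held for 49.5% of all genes tested. The medians were -0.06 and -0.11, and 0 of either list passed the looser limits. The ganglion cell marker Thy1 was nearest 0, at -0.0043. Its mean FPKM was higher in EFV-treated mice (139.6) than in control mice (138.3). The 6 microglial markers, led by C1qa, summed to between 10.1 and 12.3 FPKM, and 2 of the 5 tested had a log2 fold change below 0. The 5 ganglion cell markers summed to between 309.2 and 335.9 FPKM and the 5 endothelial markers to between 20.5 and 24.0 FPKM.

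The 5 oligodendrocyte markers, led by Mbp, summed to 10.7, 11.3 and 10.4 FPKM in control replicates 1, 2 and 3 and to 14.3, 11.1 and 17.3 FPKM in EFV replicates 1, 2 and 3, with 2 of the 5 listed at 0 in at least 1 library. The 5 fibroblast markers, led by Col1a2, summed to between 1.55 and 2.65 FPKM, with 1 listed at 0 in at least 1 library. Of the 2 oligodendrocyte markers tested 1, Mbp, and of the 4 fibroblast markers tested 1, Col1a2, was higher past the looser limits, as were 1.47% of all genes tested. The log2 fold change of Mbp went from 0.20 to 0.11 without EFV replicate 3 and was also no longer past them without control replicate 1 (0.20) or 3 (0.17). That of Col1a2 went from 0.50 to 0.36 without control replicate 2 and was also no longer past them without control replicate 1 (0.44) or EFV replicate 1 or 2 (0.52 and 0.42). The part of these cells in the values of the pathway was not tested.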
